A study of Danio rerio with 35 samples.

Results

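The granulin family of zebrafish was followed through the adult telencephalon by 4 genes, the progranulin genes grna (ENSDARG00000004954) and grnb (ENSDARG00000025081) and the short granulin genes grn1 (ENSDARG00000089362) and grn2 (ENSDARG00000088641). They were chosen by name and identifier, without a threshold on their values, and are 4 of the 24030 genes measured in whole telencephalon, 4 of the 23158 in Mpeg1+ cells and 4 of the 25248 in Olig2+ cells. All 4 passed the filter on low values (a table mean of at least 5 normalised counts) in each of these tables. Animals called mutant carried grna-/-;grnb-/-, a double homozygous loss of both progranulin genes, while grn1 and grn2 were not targeted.

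RNA was sequenced in 35 libraries. Whole telencephalon gave 5 libraries each of old mutant (18 months), young mutant (5 months), old wildtype (18 months) and young wildtype (5 months) animals. Cells sorted from pooled telencephali at 5 months gave 4 mutant and 4 wildtype libraries of Olig2+ cells, from the reporter line Tg(olig2:DsRed), and 4 libraries labelled mutant and 3 labelled wildtype of Mpeg1+ cells, from Tg(mpeg1:mCherry). The olig2 promoter drives its reporter in oligodendroglial cells and in some neural progenitors, and the mpeg1 promoter in macrophages and microglia. Both alleles are small insertions or deletions that shift the reading frame and, by the study's methods, lead to a premature stop codon. Mutant transcripts can still be made and counted along the whole gene, and whether they were degraded was not tested. Read counts of grna and grnb therefore do not test the lesion itself.

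Granulins are small cysteine-rich protein modules. In mammals a single gene, GRN, encodes progranulin, a secreted chain of such modules that is carried to the lysosome by sortilin or together with prosaposin and is cut there by cathepsins into separate granulins. Mammalian microglia are a main source of progranulin in the brain, and inherited loss of human GRN causes frontotemporal dementia or, when both copies are lost, a lysosomal storage disease. Zebrafish grna and grnb are the counterparts of GRN, whereas grn1 and grn2 encode short granulins with fewer modules.

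The libraries held 13.9 to 29.4 M reads assigned to genes in telencephalon, 6.38 to 21.8 M in mutant and 37.1 to 59.3 M in wildtype Olig2+ cells, and 25.7 to 31.6 M in Mpeg1+ cells labelled mutant against 6.11 to 29.1 M in those labelled wildtype. The 23 microglial markers summed to 43242 to 44313 RPM (reads scaled to the depth of each library) in Mpeg1+ libraries labelled mutant and 33013 to 51622 in those labelled wildtype, and to 539 to 1007 in telencephalon. The 9 markers of leptomeningeal fibroblasts, the cells of the brain's inner covering, summed to 115 to 142 RPM in the Mpeg1+ libraries labelled mutant and 18482 to 26875 in those labelled wildtype. In telencephalon they summed to 4260 to 17813 RPM, below every Mpeg1+ library labelled wildtype. In Olig2+ cells the 13 oligodendroglial markers summed to 203 to 412 RPM in mutants and 240 to 408 in wildtypes, below the 564 to 1775 of telencephalon, and the oligodendroglial regulator SOX10 was at 0 in 1 mutant library. OLIG2 itself, the gene whose promoter drives the reporter, averaged 17.4 ± 11.0 RPM in mutant and 56.7 ± 21.3 in wildtype Olig2+ cells (SD, n = 4 each). In unsorted young telencephalon it averaged 37.0 ± 4.04 RPM in mutants and 31.3 ± 2.11 in wildtypes (SD, n = 5 each). The mutant Olig2+ mean was thus below that of unsorted tissue. Of the telencephalon libraries, 7 of 20 (1 old mutant, 2 young mutant, 1 old wildtype and 3 young wildtype) held summed markers of the pineal gland, which lies beside the telencephalon, at 11786 or more normalised counts, while the other 13 held at most 457. By the study's methods mutant and wildtype animals without a reporter were brothers and sisters, and this is not stated for the reporter lines. Single libraries carry only a group and a number that ties them to no parents, tank or dissection day. The p-values then cover only the spread between these samples, part of which may be technical.

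By mean RPM 3 of the 4 genes (grna, grn1 and grn2) were highest in Mpeg1+ libraries, and grnb was highest in young wildtype telencephalon. As RPM, the scale on which populations are compared here, grna averaged 2304 ± 1009 in Mpeg1+ cells labelled wildtype (SD, n = 3) against 32.3 ± 9.62 in young wildtype telencephalon (SD, n = 5), 71.3-fold more. grn1 averaged 89.5 ± 9.84 RPM in the same Mpeg1+ libraries and 4.66 ± 5.24 in young wildtype telencephalon, 19.2-fold more in the sorted cells. This ratio depends on young wildtype library 4, at 13.2 RPM, and was 35.3 without it (chosen after seeing the data). grn2 averaged 7.17 ± 12.2 RPM in Mpeg1+ cells labelled wildtype, almost all of it in library 1, and 0.322 ± 0.284 in young wildtype telencephalon, 22.3-fold more, but 0.343 times the telencephalon level without that library. In the Mpeg1+ libraries labelled mutant the ratios to young wildtype telencephalon were 44.9 for grna, 6.15 for grn1 (11.3 without young wildtype library 4) and 85.7 for grn2. grnb went the other way, with 10.2 ± 6.89 RPM in Mpeg1+ cells labelled wildtype, 18.3 ± 3.61 in wildtype Olig2+ cells and 36.0 ± 9.48 in young wildtype telencephalon. These ratios set libraries of different starting material side by side and were given no test.

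Ordered over all 8 groups by mean RPM, grna fell into a high pair, the Mpeg1+ libraries labelled wildtype (2304) and labelled mutant (1453), and 6 lower groups running through mutant Olig2+ (71.5), wildtype Olig2+ (63.8), old wildtype (50.5), young wildtype (32.3), young mutant (21.9) and old mutant telencephalon (16.1). The libraries of neighbouring groups in that order overlapped everywhere except between the Mpeg1+ pair and the rest. For grnb the order was young wildtype telencephalon (36.0), Mpeg1+ labelled mutant (24.6), wildtype Olig2+ (18.3), Mpeg1+ labelled wildtype (10.2), mutant Olig2+ (5.10), old wildtype (4.34), young mutant (0.823) and old mutant telencephalon (0.764). Neighbouring groups were separate at 2 places only, between wildtype Olig2+ and Mpeg1+ labelled wildtype and between old wildtype and young mutant telencephalon. For grn1 the Mpeg1+ libraries labelled wildtype (89.5) stood above all libraries labelled mutant (28.7), which stood above mutant Olig2+ cells (8.28), and the remaining groups overlapped their neighbours, from 4.66 in young wildtype down to 0.431 in young mutant telencephalon. grn2 reached 27.6 in Mpeg1+ libraries labelled mutant and 7.17 in those labelled wildtype, without overlap, and 0.117 to 0.430 in the other 6 groups.

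The first question was how the family stands in the old wildtype brain. On the normalised count scale of the telencephalon table, grnb had 57.2, 80.1, 86.2, 106 and 118 counts in the 5 old wildtype libraries, against 408, 684, 790, 792 and 905 in the 5 young wildtype libraries. Every old library lay below every young one, and the old mean was 12.5% of the young mean. These values rest on 70 to 120 reads per old library and 323 to 1352 per young library. The log2 fold change was -2.98 ± 0.31 (SE, limma's moderated test, adjusted p = 1.07e-06), and the exact two-sided permutation test gave p = 0.00794, the smallest that 5 against 5 libraries allow. In bulk tissue, fewer cells that express a gene and less RNA per cell cannot be told apart.

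The other members did not pass the test with age in wildtypes. grna had 668, 752, 810, 844 and 2153 normalised counts in old wildtypes against 397, 539, 675, 712 and 882 in young wildtypes (log2 fold change 0.61 ± 0.30, adjusted p = 0.129). The groups overlapped, and 1 old library stood far above all other telencephalon libraries. grn1 had 3.41, 3.43, 9.83, 23.4 and 49.6 counts in old wildtypes against 8.69, 26.8, 43.9, 121 and 258 in young wildtypes (log2 fold change -2.10 ± 0.88, adjusted p = 0.0721), with overlap. Without the 7 libraries high in pineal genes, an alternative chosen after seeing the data, the grn1 value was -0.07 (adjusted p = 0.971). Of the young wildtypes that fit keeps only libraries 2 and 3, the lowest of the group at 26.8 and 8.69 counts. grn2, at 0 to 16.1 normalised counts in any telencephalon library, had a log2 fold change of 0.83 ± 0.67 (adjusted p = 0.354). A gene was called when its adjusted p was 0.05 or less and its log2 fold change at least 1 in size. So 0 of 4 members were called higher and 1 lower, where 5.21% and 5.66% of the 19877 genes tested were, and 1 of 4 did not overlap between the groups, where 21.0% of genes did not. By edgeR and DESeq2, too, 0 members were called higher, and at an unadjusted p under 0.05 the count was 0. Both tools called 2 members lower, grn1 (-2.36, adjusted p = 0.0337 by edgeR, and -2.36, adjusted p = 0.0116 by DESeq2) besides grnb.

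The second question was what the double mutation does to the transcripts of the family at 5 months. grnb had 12.7, 14.9, 15.5, 20.2 and 20.3 normalised counts in young mutants against 408 to 905 in young wildtypes, which is 2.34% of the wildtype mean and rests on 12 to 18 reads per mutant library. The 2 groups were far apart (log2 fold change -5.31 ± 0.31, adjusted p = 2.37e-10). grna, although mutated in the same animals, had 281, 440, 444, 486 and 582 counts in young mutants against 397 to 882 in young wildtypes, with overlap and no call (log2 fold change -0.51 ± 0.30, adjusted p = 0.23). Without the libraries high in pineal genes this value turned to 0.12 (adjusted p = 0.902). Of the young wildtypes that fit keeps only libraries 2 and 3, the lowest of the group for grna at 539 and 397 counts.

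grn1, which is not mutated, had 6.37 to 11.2 normalised counts in the 5 young mutant libraries against 8.69, 26.8, 43.9, 121 and 258 in young wildtypes. The call on it was narrow (log2 fold change -2.43 ± 0.88, adjusted p = 0.0482, exact permutation p = 0.0317), and the groups overlapped. The wildtype libraries with 43.9, 121 and 258 counts were also the 3 young wildtype libraries high in pineal genes. Without the 7 libraries high in pineal genes the log2 fold change was -0.88 with an adjusted p of 0.668, a fit that keeps only the young wildtype libraries with 26.8 and 8.69 counts. The call was also lost in 14 of 20 fits that each left out 1 library. In this comparison 2 of 4 members were called lower against 3.82% of all genes, none higher against 4.97% (0 also at an unadjusted p under 0.05, by edgeR and by DESeq2), and 1 of 4 did not overlap against 23.1%.

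In old animals both progranulin genes were lower in mutants. grna had 229, 252, 275, 418 and 494 normalised counts in old mutants against 668 to 2153 in old wildtypes (31.9% of the wildtype mean, log2 fold change -1.56 ± 0.30, adjusted p = 0.00287). grnb had 4.87, 15.8, 15.9, 21.1 and 21.3 counts in old mutants against 57.2 to 118 in old wildtypes (17.7% of the wildtype mean, log2 fold change -2.53 ± 0.31, adjusted p = 5.99e-05). No old mutant library reached an old wildtype library for either gene, and the exact permutation p was 0.00794 for both. The short granulin genes did not pass the test, with grn1 at 0 to 23.4 counts in old mutants against 3.41 to 49.6 in old wildtypes (log2 fold change -0.59 ± 0.88) and grn2 at -0.59 ± 0.67. Here 2 of 4 members were called lower against 1.58% of all genes, none higher against 1.23% (0 also at an unadjusted p under 0.05, by edgeR and by DESeq2), and 2 of 4 did not overlap against 6.91%.

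Between old and young mutants, 0 of 4 members were called higher or lower by limma, where 0.307% and 1.02% of all genes were called, and 0 of 4 members were separate between the groups, where 7.17% of genes were. At an unadjusted p under 0.05 the count of members was also 0, and edgeR and DESeq2 called 0 members. The old mutant mean of grnb was 94.4% of the young mutant mean (log2 fold change -0.20 ± 0.31, adjusted p = 0.742). The age effect on grnb was thus -0.20 in mutants and -2.98 in wildtypes, and the difference between these 2 effects was 2.78 ± 0.44 on the log2 scale (adjusted p = 0.00037). It was the only call among the 4 members, on the positive side, where 2.58% of all genes were called against 3.46% on the negative side. In mutants the counts behind it were small, with 5 to 26 reads of grnb per old library. For grna the corresponding difference was -1.05 ± 0.43 and missed the threshold (adjusted p = 0.105), though DESeq2 called it (-1.13, adjusted p = 0.0481).

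Old wildtypes were also set against young mutants, since the study asks whether young mutants resemble aged wildtypes. Both progranulin genes were higher in old wildtypes. grnb, at 57.2 to 118 normalised counts in old wildtypes and 12.7 to 20.3 in young mutants, was 5.35-fold higher (log2 fold change 2.33 ± 0.31, adjusted p = 6.03e-05), and grna was 2.34-fold higher (668 to 2153 against 281 to 582 counts, log2 fold change 1.11 ± 0.30, adjusted p = 0.0106). Neither gene overlapped between these groups, although the grna change fell below a log2 size of 1 without old wildtype library 5 (0.81) or without young mutant library 4 (0.96). Without the 7 libraries high in pineal genes grna missed the test (0.96, adjusted p = 0.0907). So 2 of 4 members were called higher against 3.22% of genes, none lower against 4.62% (0 also at an unadjusted p under 0.05, by edgeR and by DESeq2), and 2 of 4 did not overlap against 20.8%. The 5 pairwise comparisons above reuse the same 4 groups of libraries, so their results are not independent of each other.

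**Figure D1:**
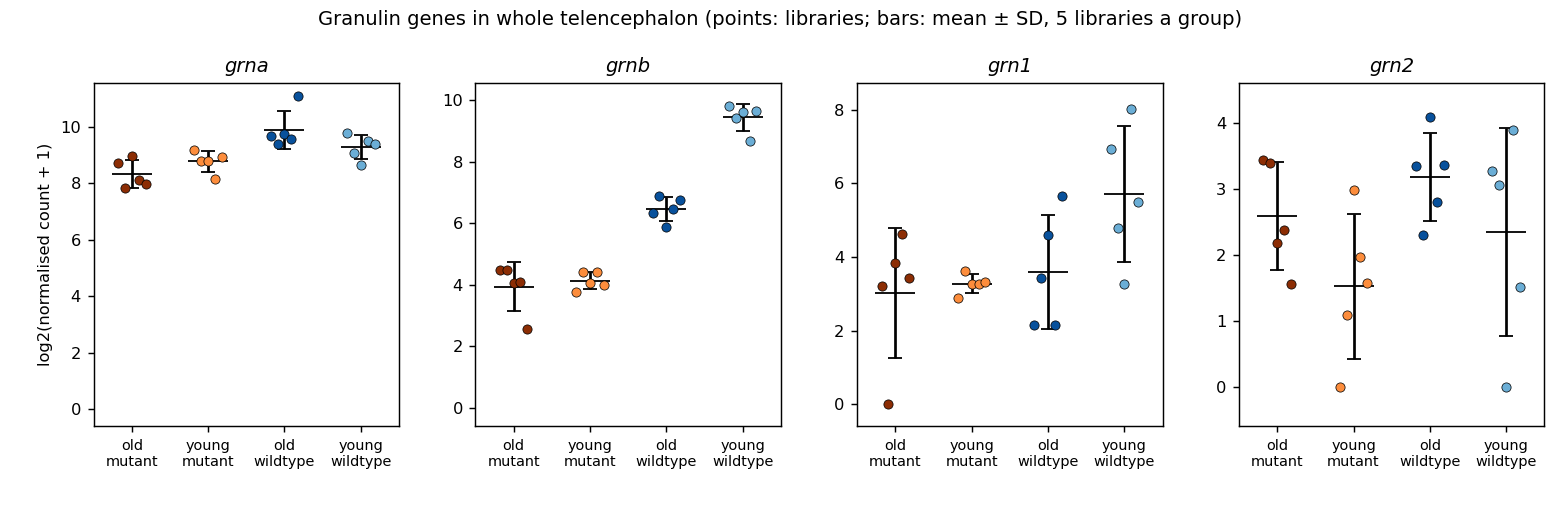
Levels of grna, grnb, grn1 and grn2 in whole telencephalon on the scale log2(normalised count + 1), one panel per gene, with old mutant, young mutant, old wildtype and young wildtype libraries from left to right. Points are the 5 libraries of a group and bars the mean ± SD of the log values. The grnb panel steps down between young wildtype (408 to 905 normalised counts), old wildtype (57.2 to 118) and both mutant groups (4.87 to 21.3), while grn1 and grn2 overlap in every pair of groups.

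In Olig2+ cells the mutants held less grnb. The libraries had 57.5, 142, 145 and 205 normalised counts in mutants against 307, 345, 446 and 472 in wildtypes. No mutant library reached a wildtype library, and the mutant mean was 35% of the wildtype mean (log2 fold change -1.62 ± 0.43, adjusted p = 0.02, exact two-sided permutation p = 0.0286, the smallest for 4 against 4). The fold change kept its sign but missed the threshold without wildtype library 1 (-1.55, adjusted p = 0.0659) or without wildtype library 3 (-1.53, adjusted p = 0.0664). This was 1 of 4 members called lower where 12.7% of 22273 genes were, and 1 of 4 without overlap where 24.2% were. None was called higher by limma, where 6.99% of genes were. The summed neuronal markers lay apart in RPM, at 5600 to 7536 in mutants and 9660 to 11757 in wildtypes. In normalised counts, the scale used here for grnb, they overlapped, at 145138 to 215817 in mutants and 195226 to 249539 in wildtypes. From normalised counts their Pearson r with grnb over the 8 libraries was 0.80, and 0.43 once the group means were removed. Their part in the grnb values was not tested.

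grna and grn1 did not pass in Olig2+ cells. grna had 1275, 1765, 1941 and 2539 counts in mutants against 611, 1213, 1858 and 1873 in wildtypes (log2 fold change 0.53 ± 0.38, adjusted p = 0.339). grn1 had 49.0, 87.7, 189 and 726 counts in mutants against 11.98, 47.2, 71.6 and 116 in wildtypes (log2 fold change 1.71 ± 0.83, adjusted p = 0.156), and grn2 held 0 to 20.1 counts in mutants and 0 to 4.82 in wildtypes. The library with 726 counts of grn1, 2539 of grna and 20.1 of grn2 was mutant library 2 in each case. On the RPM scale grn1 (18.8) and grn2 (0.520) were still highest in that library, but grna (65.9) was below mutant libraries 1 (88.2) and 4 (76.2) and wildtype libraries 1 (85.8) and 4 (81.9). Mutant library 2 also had the most microglial RNA on both scales. The 23 microglial markers summed to 45673 to 256899 normalised counts in mutants, with mutant library 2 at the top, and to 13987 to 96011 in wildtypes, and 10 of the 23 were called higher (median log2 fold change 1.34 over the list, -0.01 over all genes). Over the 8 Olig2+ libraries the summed markers had a Pearson r of 0.95 with grn1 (0.75 without the 2 libraries farthest from the median), 0.83 with grna (0.67) and -0.24 with grnb. In RPM the r was 0.93 with grn1 (0.74) and 0.61 with grna (-0.01), so the grna relation depended on the scale and on those libraries. The 8 libraries of these correlations also differ in depth and genotype, and the part of microglial RNA in the Olig2+ values of grna and grn1 was not tested. DESeq2 called grn1 higher (2.08, adjusted p = 0.0281).

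In Mpeg1+ cells grnb differed, by label, in the opposite direction to mutant telencephalon and mutant Olig2+ cells. The libraries labelled mutant had 499, 579, 588 and 635 normalised counts of grnb against 51.3, 258 and 268 in the libraries labelled wildtype, so every library labelled mutant held more of this mutated gene. The labelled mutant mean was 2.99-fold the labelled wildtype mean (log2 fold change 1.90 ± 0.57), which did not pass limma's test (adjusted p = 0.0787), and the exact permutation p of 0.0571 is the smallest that 4 against 3 libraries allow in a two-sided test. DESeq2 called it (1.58, adjusted p = 0.0257), and limma did without labelled wildtype library 2, the one with 51.3 counts (1.12, adjusted p = 0.00618). Since read counts do not test the lesion, this value does not decide whether the labels hold, and directions in Mpeg1+ cells are given by label only.

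grna did not follow grnb in Mpeg1+ cells. It had 32551, 33298, 34618 and 35094 counts in libraries labelled mutant against 30190, 41274 and 63711 in those labelled wildtype (log2 fold change -0.34 ± 0.24, adjusted p = 0.409). The 4 libraries labelled mutant lay within a narrow range inside the wider range of the 3 labelled wildtype. grn1, in contrast, was lower in the libraries labelled mutant, at 606, 630, 693 and 747 counts against 1512, 1655 and 2265 (log2 fold change -1.42 ± 0.21, adjusted p = 0.00741). This was the only call among the 4 members, lower as were 3.57% of 21155 genes (4.93% were higher), although 3 of 4 members did not overlap between the labels, where 28.6% of genes did not. The grn1 call held with any single library left out, and was lost when the 2 pairs of much alike libraries labelled mutant were averaged (-1.42, adjusted p = 0.207). By median chi-square per gene, libraries 1 and 2 labelled mutant differed by 0.713 and libraries 3 and 4 by 1.37. Between the pairs it was 12.9 to 16.9. The 4 libraries may thus hold fewer than 4 independent samples, and leaving out 1 keeps its like. The SDs and p-values given for Mpeg1+ cells count them as 4.

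grn2 had 600, 606, 639 and 725 normalised counts in Mpeg1+ libraries labelled mutant against 0, 4.22 and 388 in those labelled wildtype. All libraries labelled mutant were higher, yet the labelled wildtype libraries spread so widely that the log2 fold change of 5.66 ± 1.73 did not pass (adjusted p = 0.0827). Without labelled wildtype library 1, the one with 388 counts, it was 8.13 (adjusted p = 0.00331). The library at 0 allows up to 0.103 RPM of grn2, taking 3 reads as the limit that a count of 0 leaves, which covers counting error only. The summed markers of leptomeningeal fibroblasts, 2684 to 3354 normalised counts in libraries labelled mutant and 353376 to 591077 in those labelled wildtype, separated the same libraries. Over the 7 Mpeg1+ libraries their Pearson r was 0.98 with grn1, 0.45 with grna, -0.82 with grnb and -0.77 with grn2. Once the group means were removed it was 0.88, -0.92, -0.71 and -0.10 in the same order. The part of these markers in the granulin values was not tested.

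**Figure D2:**
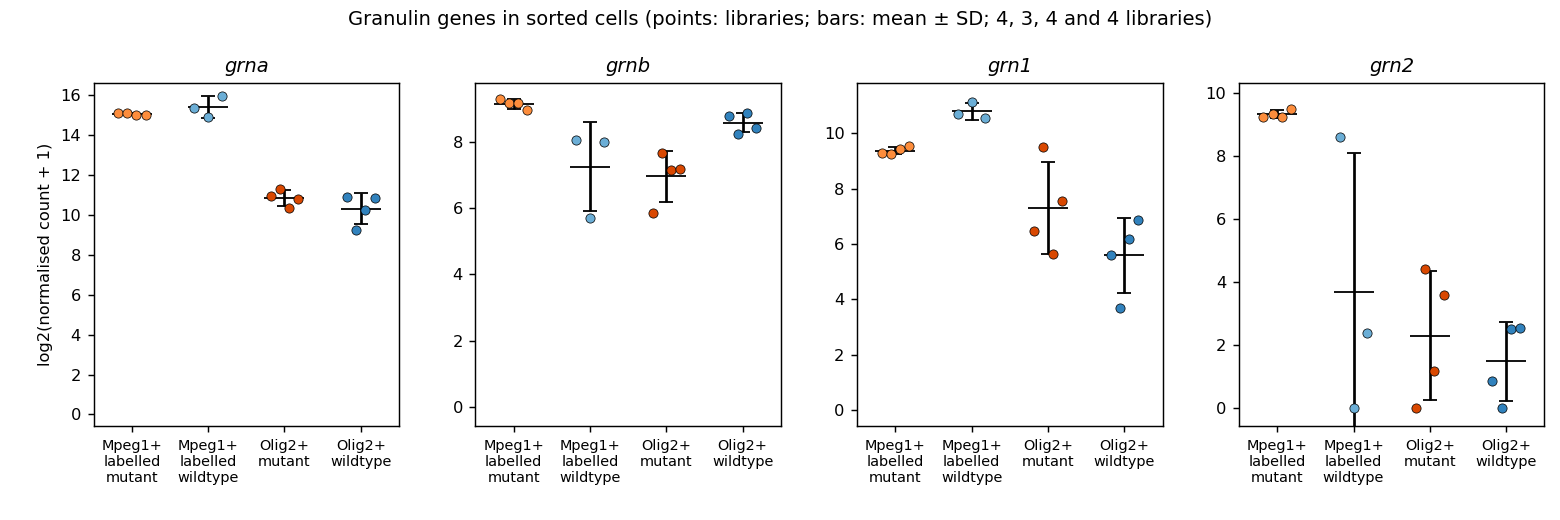
Levels of the 4 genes in sorted cells on the scale log2(normalised count + 1), with mutant left of wildtype in each population (for Mpeg1+ cells, by label). Points are libraries and bars the mean ± SD of the log values. grnb is lower in mutant Olig2+ cells (57.5 to 205 against 307 to 472 counts) and higher in Mpeg1+ cells labelled mutant (499 to 635 against 51.3 to 268), and the 2 populations were scaled in separate tables.

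grn1 and grn2 lie next to each other in the RefSeq annotation, with 0 protein-coding genes between them, and how reads that match both were counted is not given in the sources used here. The split of reads between the pair is therefore uncertain, and the share of grn2 in their joint reads was examined. In Mpeg1+ libraries labelled mutant grn2 took 46.7%, 48.8%, 49.3% and 51.3% of 1373 to 1768 joint reads, near an even split in all of them. In the libraries labelled wildtype it took 19.0% of 685 reads (95% Clopper-Pearson interval 16.1% to 22.1%), 0 of 2868 reads (up to 0.129%) and 0.279% of 2154 reads.

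The mean shares were thus 49.0% ± 1.92 in libraries labelled mutant and 6.42% ± 10.9 in libraries labelled wildtype (SD, n = 4 and 3), a difference of 42.6 percentage points with exact permutation p = 0.0571, the smallest possible. The sum of both genes differed less. It was 1311 ± 111 normalised counts in libraries labelled mutant and 1941 ± 384 in those labelled wildtype, a log2 difference of -0.55 with the same permutation p. Every library labelled mutant had a lower joint count and a higher grn2 share than every library labelled wildtype. The number of libraries, and the alike pairs among those labelled mutant, limit the test of either quantity.

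The pair was made up mostly of grn1 in Olig2+ cells, and telencephalon libraries varied widely. In Olig2+ cells grn2 took 2.65% ± 2.23 of the joint reads in mutants and 2.93% ± 2.67 in wildtypes (SD, n = 4 each). In telencephalon it took 44.3% ± 23.8 in old wildtypes and 7.47% ± 8.19 in young wildtypes (SD, n = 5 each), a difference of 36.8 points (exact permutation p = 0.0159) with overlapping groups. Those shares rest on 11 to 51 joint reads per old library and 8 to 215 per young library, so single libraries have wide intervals. Mutant telencephalon stood at 41.5% ± 36.5 in old and 19.3% ± 16.9 in young animals (exact permutation p = 0.254).

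**Figure D3:**
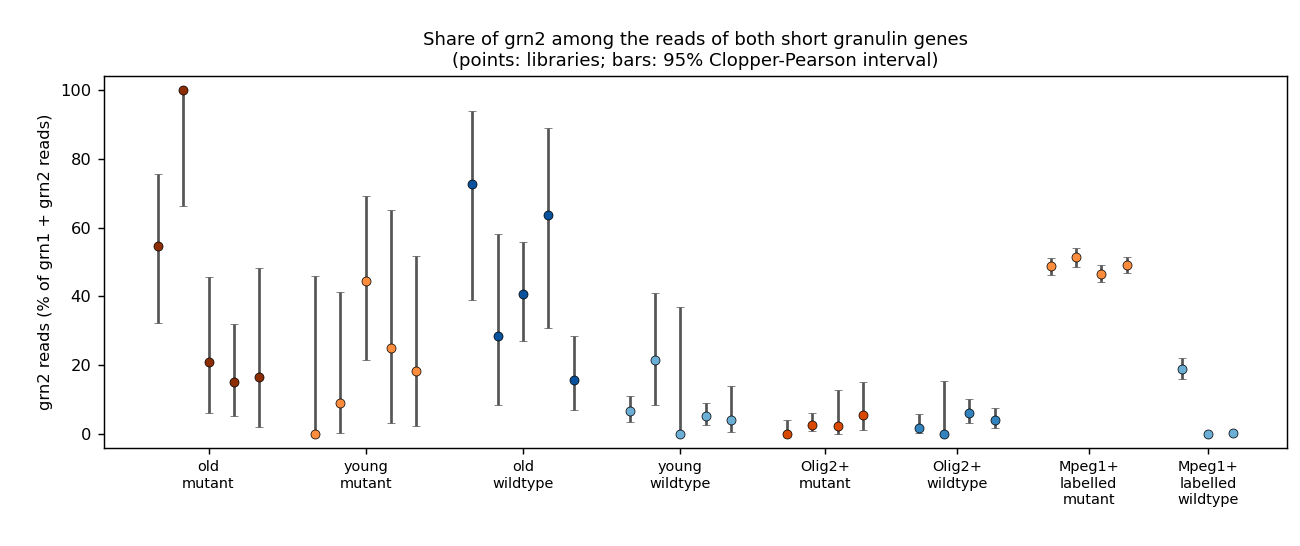
Share of grn2 in the joint reads of grn1 and grn2 in each library, in percent, with mutant groups left of their wildtype groups. Points are libraries and vertical bars 95% Clopper-Pearson intervals, which cover counting error only. The 4 Mpeg1+ libraries labelled mutant lie at 46.7% to 51.3% with narrow bars, while the telencephalon bars are wide because few reads fall on either gene.

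**Figure D4:**
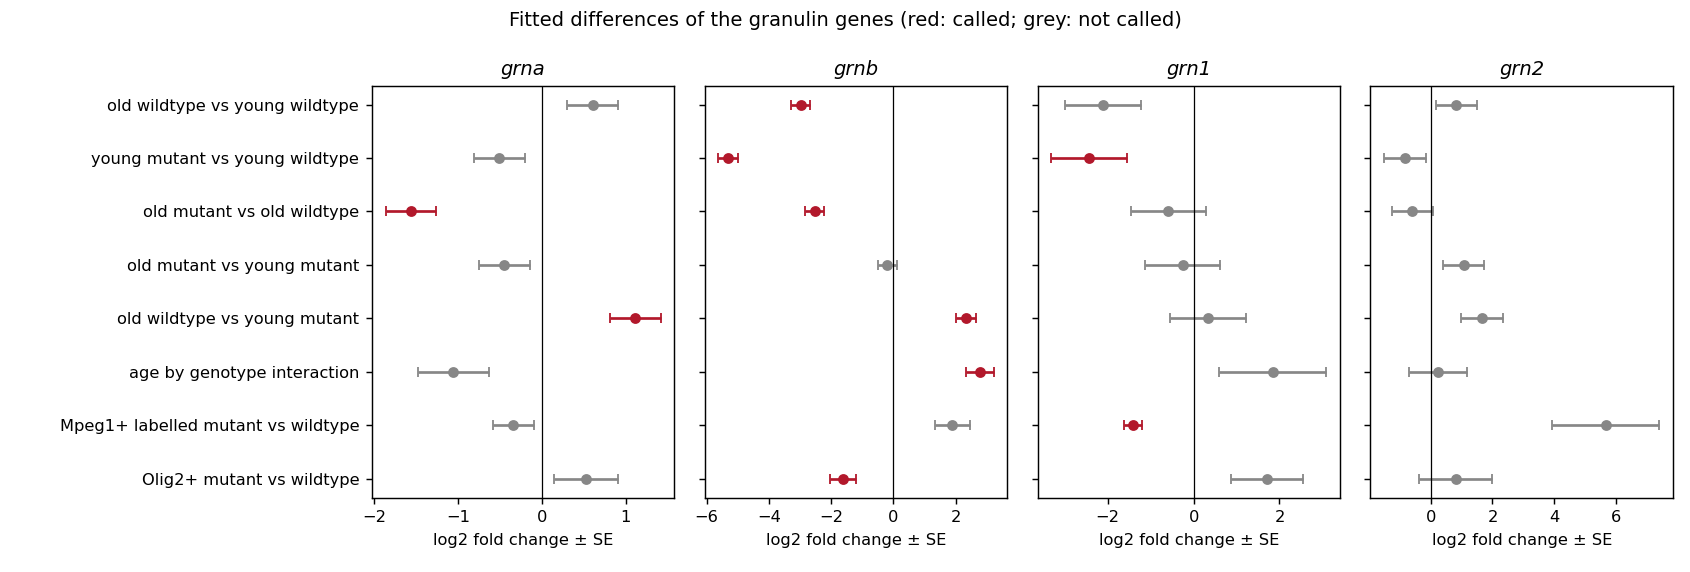
Log2 fold changes of the 4 genes in the 8 comparisons, as mutant over wildtype, old over young, or the difference of age effects, with standard errors from limma. Red points passed both thresholds (adjusted p 0.05 and log2 size 1), grey points did not. grnb is called in 6 of the 8 comparisons and grn2 in 0.

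The genes whose levels ran most like each member over the 20 telencephalon libraries were then listed, among 15073 genes with a mean of at least 50, as a description without tests. The libraries of these correlations share group, depth and dissection. grnb in particular falls into separate levels in young wildtypes, in old wildtypes and in mutants, with old and young mutants overlapping. grnb had 27 genes at a Pearson r of 0.9 or more, whereas the other members had 0. Its closest was DOLPP1, a dolichyl pyrophosphate phosphatase of protein glycosylation (r = 0.96, Spearman's rho = 0.89), with means of 142 counts in old mutants, 160 in young mutants, 221 in old wildtypes and 551 in young wildtypes. KIAA0930 (r = 0.94), with means of 41.8, 35.6, 64.3 and 248 in the same order of groups, SS18L2 (0.94), vopp1b (0.93) and the mitochondrial isocitrate dehydrogenase subunit IDH3B (0.93) followed. Once the 4 group means were removed, other genes led, SACM1L (r = 0.81, rho = 0.49), TXNDC17 (0.79, 0.74) and capza1a (0.78, 0.56), and without the 2 farthest libraries these fell to 0.51, 0.63 and 0.47.

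grna ran most like TMED3, a cargo receptor of the early secretory pathway (r = 0.80, rho = 0.81), with means of 119 counts in old mutants, 129 in young mutants, 291 in old wildtypes and 218 in young wildtypes. Next came si:ch211-132i7.2 (0.79), STARD13 (0.79), COX7A2L (0.78) and ANKS4B (0.77). Within groups the closest were IFIH1, a sensor of viral RNA (r = 0.80, and 0.62 without the 2 farthest libraries), zgc:64051 (0.75) and cd68, a lysosomal marker of macrophages (0.74). The summed microglial markers, in contrast, had an r with grna of only 0.30 over all libraries and 0.20 within groups. Without the 2 farthest libraries these values were 0.09 and 0.003. Among the members themselves, grna and grn1 had an r of 0.60 within groups, and grna and grnb 0.49 over all libraries but 0.08 within groups.

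grn1 ran most like SPI1, the gene of the myeloid transcription factor PU.1 (r = 0.79, rho = 0.60, and 0.66 without the 2 farthest libraries). It was followed by sft2d2b (0.78), cadps2 (0.78), CMTM3 (0.76) and GPR151, a receptor of habenular neurons (0.74). GPR151 averaged 23.0 counts in old mutants, 146 in young mutants, 129 in old wildtypes and 904 in young wildtypes, and its r with grn1 was 0.56 over the 13 libraries low in pineal genes. Within groups CMTM3 (0.85), spi1a (0.81), a second PU.1 gene, and fyb1b (0.80), an adaptor of immune cell signalling, were closest. The summed neuronal markers had an r of -0.67 with grn1 within groups (-0.50 without the 2 farthest libraries). The summed microglial markers, which include SPI1, had an r of 0.45 with grn1 within groups (0.53 without those libraries) and 0.17 over all libraries. grn2 ran most like EYA4, a transcriptional cofactor and phosphatase (r = 0.86, and 0.72 without the 2 farthest libraries), then ubn2a (0.76), P4HTM (0.76), ERGIC2 (0.76) and kdelr2a (0.73), on at most 20 reads of grn2 per telencephalon library.

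**Figure D5:**
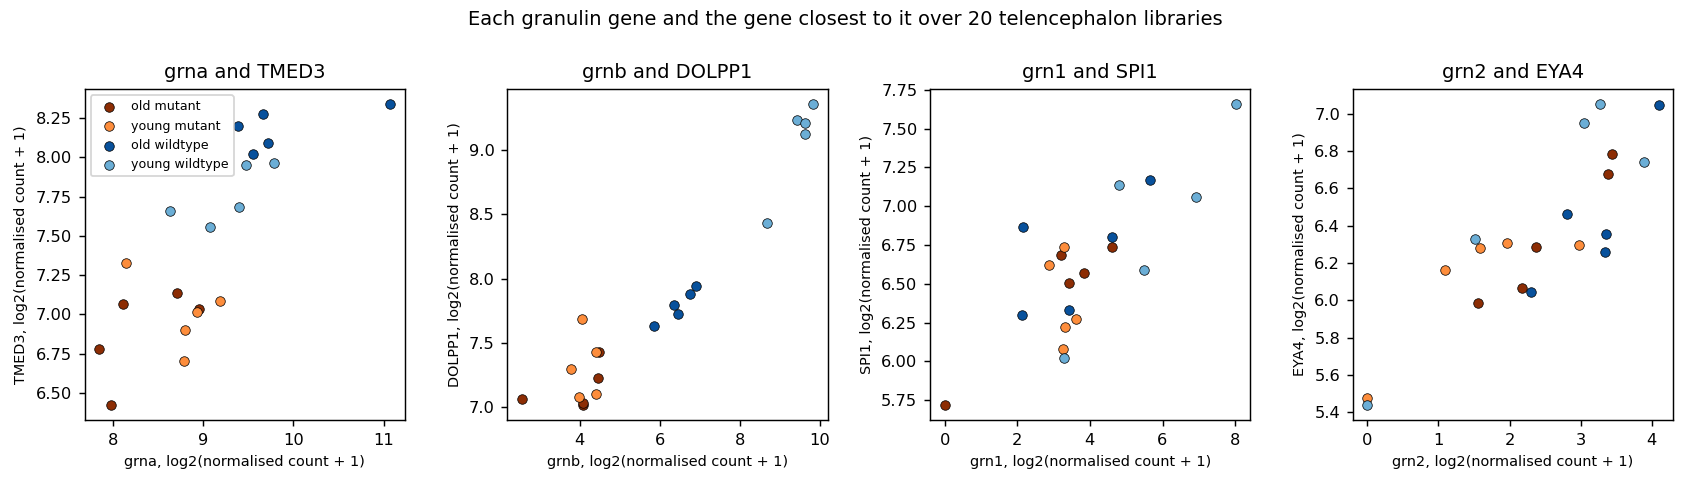
Each member (horizontal) against the gene with the highest Pearson r over the 20 telencephalon libraries (vertical), both on the scale log2(normalised count + 1), with colours for old mutant, young mutant, old wildtype and young wildtype. The panels pair grna with TMED3 (r = 0.80), grnb with DOLPP1 (0.96), grn1 with SPI1 (0.79) and grn2 with EYA4 (0.86). The grnb points lie in separate clouds for young wildtypes, old wildtypes and mutants, with old and young mutants overlapping, so their r reflects group levels.

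Sorted cells gave too few libraries to single out genes. Over 8 Olig2+ libraries 252 of 16077 genes reached an r of 0.9 with grnb, the first being the neurotrophic receptor RET (0.99), at a mean of 21.9 normalised counts in mutants and 171 in wildtypes. For grna the first were arhgef3l, ctss2.1, named as a cathepsin S, and STING1, a sensor of cytosolic nucleotides. For grn1 they were EBF3, si:ch211-137a8.2 and FERMT3, an integrin activator of blood cells. Over 7 Mpeg1+ libraries 9.24% of 15193 genes reached 0.9 with grnb and 4.83% with grn1, so a close match there distinguishes little.

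Genes that handle progranulin in mammals were read from a list of 46 matched identifiers: receptors and carriers, proteases, lysosomal proteins and transcription factors of lysosomal genes. Of 43 tested in telencephalon, limma called 0 higher and 1 lower in young mutants against young wildtypes (11 were higher at an unadjusted p under 0.05, and 0 by edgeR and by DESeq2). That gene was GBA2, a glucosylceramidase (316 ± 17.2 against 726 ± 291 normalised counts, SD, n = 5 each, log2 fold change -1.03, adjusted p = 0.00996). Over all genes 4.97% were called higher and 3.82% lower, and the median log2 fold change of the list was -0.02, against 0.00 over all genes. The cathepsins, prosaposin and sortilin genes of the list were not called, for example PSAP, the prosaposin gene, at 15358 to 18456 counts in young mutants against 16786 to 20164 in young wildtypes.

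In old mutants against old wildtypes 1 was called higher and 1 lower of 43, beside 1.23% and 1.58% of all genes (list median 0.03, all genes -0.01). The higher one was LAMP1, a lysosomal membrane protein, at 151 ± 90.4 counts against 73.6 ± 81.2 (log2 fold change 1.34, adjusted p = 0.035). The related gene lamp1b, also on the list, was not called by limma here, with age in wildtypes or in the interaction. The lower one was ADAMTS7, a metalloprotease that cuts progranulin in mammals (-3.48, adjusted p = 0.0265). edgeR and DESeq2 each called 0 of the list lower here. Old mutants against young mutants gave 0 calls of 43 by limma (4 higher and 7 lower at an unadjusted p under 0.05), and 1 higher by each of edgeR and DESeq2.

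With age in wildtypes 1 was called higher and 2 lower of 43, beside 5.21% and 5.66% of all genes (list median -0.06, all genes -0.01), and the libraries show an uneven picture. ADAMTS7 had 116, 209, 216, 237 and 292 counts in old wildtypes against 4.35 to 13.4 in young wildtypes (log2 fold change 4.58, adjusted p = 0.00195), without overlap. HEXA, a lysosomal hexosaminidase subunit, had 152, 152, 167, 183 and 237 in old wildtypes against 465 to 577 in young wildtypes (-1.58, adjusted p = 7.8e-05), and LAMP1 fell by 1.89 on the log2 scale (adjusted p = 0.00181). Old mutant libraries were split for the first of these genes: libraries 1 and 2 had 146 and 282 counts of ADAMTS7, and libraries 3, 4 and 5 had 2.64, 0.837 and 6.82. The same libraries 1 and 2 had the lowest HEXA of the group (222 and 198, against 543, 589 and 385 in libraries 3, 4 and 5). This split of old mutants was seen over all genes. The median chi-square per gene was 2.69 between libraries 1 and 2 and 2.69 to 4.22 among libraries 3, 4 and 5. Across the split it was 5.92 to 8.14. Its cause was not tested, and the p-values for old mutants count 5 independent libraries. In old wildtypes against young mutants ADAMTS7 was higher (5.24, adjusted p = 0.00113), and adamts12 (-1.65) and HEXA (-1.58) were lower. In the interaction LAMP1 was called at 2.24 (adjusted p = 0.0147) and scarb2a, the carrier of glucocerebrosidase to lysosomes, at -1.32 (adjusted p = 0.0236).

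In Olig2+ cells 6 of 45 were called higher and 3 lower in mutants, beside 6.99% and 12.7% of all genes (list median -0.05, all genes -0.01). The higher ones were the proteases CTSB (5619 ± 1272 against 2300 ± 912 counts), ctsbb, CTSK and ADAMTS7 (175 ± 124 against 5.39 ± 4.27) and both NPC2 genes, cholesterol carriers of the lysosome. PSAP was lower, with 3027, 4076, 6969 and 10718 counts in mutants against 11460 to 13907 in wildtypes (-1.18, adjusted p = 0.0343). The endocytic receptor LRP1 (-1.58, the other LRP1 gene was not called) and the transcription factor tfe3b (-2.33) were also lower. Microglia express cathepsins and NPC2 strongly. The summed microglial markers overlapped between the genotypes, at 1993 to 6666 RPM in mutants and 692 to 4235 in wildtypes. Their part in these calls was not tested. With libraries scaled to equal totals the counts were 3 higher and 5 lower.

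In Mpeg1+ cells 2 of 45 were called higher and 2 lower in the libraries labelled mutant, where 4.93% and 3.57% of all genes were (list median 0.21, all genes 0.05). ADAMTS7 had 690 ± 66.3 counts in libraries labelled mutant and 2.25 ± 0.79 in those labelled wildtype (SD, n = 4 and 3, log2 fold change 7.76, adjusted p = 0.00031), and the transcription factor TFEC was also higher (1.06, adjusted p = 0.0433). The sortilin gene SORT1 (ENSDARG00000029402), whose mammalian product takes up progranulin, had 47.2, 58.3, 119 and 143 counts in libraries labelled mutant against 698, 835 and 1515 in those labelled wildtype (-3.52, adjusted p = 0.00609). LRP1 (ENSDARG00000097827), the receptor through which prosaposin can enter cells, was lower as well (-2.02, adjusted p = 0.0134). The other SORT1 (ENSDARG00000056252) and LRP1 (ENSDARG00000029146) genes of the list were not called by limma. The markers of leptomeningeal fibroblasts separated the same libraries, as given above, and their part in these values was not tested. DESeq2 called 4 of the list higher and 5 lower here.

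The 3 nearest protein-coding genes on each side of each member, in the order of RefSeq, were read beside the members. Around grnb 0 of 5 tested neighbours were called with age in wildtypes, where 5.21% of all genes were called higher and 5.66% lower. In old mutants against old wildtypes it was also 0 of 5, where 1.23% and 1.58% of all genes were. At such shares 0 of 5 says little about the neighbours. Their log2 fold changes were -0.74 to 0.24 with age and -0.70 to 0.61 in old mutants, beside -2.98 and -2.53 for grnb itself. edgeR and DESeq2 called 0 of them as well, and at an unadjusted p under 0.05 there were 0 higher and 2 lower with age, and 1 higher and 2 lower in old mutants. In young mutants 1 of 5 was called, where 4.97% of all genes were called higher and 3.82% lower. This was the kinase gene map3k14b next to grnb, which was lower (35.6 ± 13.4 against 102 ± 27.3 counts in young wildtypes, log2 fold change -1.52, adjusted p = 0.000668). It averaged 61.8 ± 20.7 counts in old wildtypes and 37.7 ± 13.9 in old mutants. Like grnb, map3k14b thus had its highest mean in young wildtypes, then old wildtypes, and lower means in both mutant groups. Beside grna, RUNDC1 was called in both sorted populations and in opposite directions, at 687 ± 65.3 counts in Mpeg1+ cells labelled mutant against 189 ± 2.24 in those labelled wildtype (1.86, adjusted p = 0.00369), and 108 ± 39.7 in mutant Olig2+ cells against 575 ± 203 in wildtypes (-2.43, adjusted p = 0.00271). RUNDC1 was not called in any telencephalon comparison. The other called neighbours of grna were ifi35, higher in old than in young wildtypes (60.9 ± 29.8 against 27.0 ± 5.65 counts, 1.06, adjusted p = 0.0318) and than in young mutants (1.01, adjusted p = 0.0434, not called by edgeR or DESeq2), and RPL27, a ribosomal protein gene, higher in mutant Olig2+ cells (2.08, adjusted p = 0.0187). RPL27 had 5685 ± 6520 counts in those mutants, with a median of 2742 and a maximum of 15439, against 929 ± 293 in wildtypes. Near grn1 and grn2, HEPACAM2 was higher in young mutant than in young wildtype telencephalon (2.40, adjusted p = 0.00318) and lower in old wildtypes than in young mutants (-1.90, adjusted p = 0.0145). fam133b was higher in mutant Olig2+ cells (1.90, adjusted p = 0.0492, not called by DESeq2). It had 5315 ± 7142 counts in mutants, with a median of 1850 and a maximum of 16025, against 880 ± 404 in wildtypes. illr4 was higher in Mpeg1+ cells labelled mutant (4.95, adjusted p = 0.0422), which DESeq2 also called (3.30, adjusted p = 0.0301) and edgeR did not (3.50, adjusted p = 0.156). The cause of the changes in these neighbours was not tested.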

How the data were processed

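RNA-seq of 35 libraries was used, grouped by the labels into 4 telencephalon groups and 2 groups for each of 2 sorted populations. The authors aligned reads with STAR to GRCz10, summed them per gene and divided them by DESeq2 size factors (version 3.9 per the labels). The deposited signal values are these normalised counts, one table per population, each scaled on its own. The counting tool, its annotation, its strand setting and its treatment of reads with several matches are not given in the sources used here. Amplified low-input cDNA libraries were sequenced, without molecular identifiers. All values were whole multiples of one step per library, so 100% came back as whole reads within 1e-06, and depth is their sum. 0 columns stayed unused.

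The members and lists were chosen with earlier results of these data known. Genes with a table mean of at least 5 were tested by limma 3.58.1 (R 4.3.3, trend and robust) on log2(normalised count + 1), with Benjamini-Hochberg adjustment over all genes of the comparison. The added 1 understates changes of low genes. The 4 telencephalon groups shared 1 fit. Exact two-sided permutation tests of the log values were added for the members. Named are the 4 members, the 5 genes (3 within groups) that follow each most closely by Pearson r in telencephalon and up to 3 in sorted cells, called partner genes with examples of others, the 3 nearest RefSeq genes on either side, and abundant markers. Symbols came from the study's tables and a gene name table, in capitals where the source has them. RefSeq (GRCz12tu) gave gene order only. Numbers did not pair samples. The correlation of same-numbered deviations was -0.34 to 0.48 in telencephalon, 0.00 to 0.14 in Olig2+ and -0.01 to 0.00 in Mpeg1+ cells.

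The results were recomputed with a pseudocount of 0.25 or 4, with the filter removed or set to 50, at equal totals, with edgeR 4.0.16 and DESeq2 1.42.0 on recovered reads, with a replicate block, in fits of only the 2 groups compared, with alike libraries averaged and with each library left out. Leaving out the libraries high in pineal genes, or the 2 libraries farthest from a member's median, was added after seeing the data. The former keeps only libraries 2 and 3 of the young wildtypes. The fit was tested on simulated data. Python 3.11.15, pandas 2.3.3, scipy 1.17.1 and matplotlib 3.10.9 were used. The study's imaging, and its own tables of fold changes, were not analysed here.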

Additional observations from a re-analysis of the deposited data

Results flagged for a closer look

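grna reached 2153 normalised counts in old wildtype library 5, while the other 4 old wildtype libraries held 668 to 844. The gap took 0.88 of the whole range of the group, past the limit for 5 libraries. Of 28 sets of libraries checked in this way (each member in each group of 4 or 5), about 1 in 20 passes by chance. Without that library the log2 fold change of grna in old wildtypes against young wildtypes was 0.31, and in old mutants against old wildtypes -1.26, which kept its call.

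The age effect on grnb differed between genotypes in telencephalon, by 2.78 on the log2 scale (mutant minus wildtype, limma, adjusted p = 0.00037).

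The mutant effect on grnb had opposite signs in the sorted populations, 1.90 in Mpeg1+ cells by label and -1.62 in Olig2+ cells. The Mpeg1+ value did not pass limma's test (adjusted p = 0.0787), and the Olig2+ value did (adjusted p = 0.02). The groups did not overlap in either population, as for 28.6% of all genes in Mpeg1+ and 24.2% in Olig2+ cells. The difference between the populations was not tested, because they were scaled in separate tables.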

How the results depend on the processing

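Of the 4 members in 8 comparisons, the calls on grnb in telencephalon and on grna in old mutants against old wildtypes held under every alternative run. No call changed sign. grn1 in old wildtypes against young wildtypes passed with a pseudocount of 4 (-1.82), edgeR (-2.36) and DESeq2 (-2.36), and ranged from -2.71 to -1.52 with 1 library left out, passing without young wildtype 3, old wildtype 5 or old mutant 2; without libraries high in pineal genes it was -0.07 (adjusted p = 0.971), and grna in young mutants against young wildtypes turned from -0.51 to 0.12, not called. grn1 in young mutants against young wildtypes was lost with a pseudocount of 0.25 (-2.51), without a filter (-2.43) and without libraries high in pineal genes (-0.88), and ranged from -3.04 to -1.85. grna in old wildtypes against young mutants was lost without libraries high in pineal genes (0.96) and ranged from 0.81 to 1.24, and grn2 passed there in a fit of the 2 groups alone (1.66), ranging from 1.28 to 2.02 and passing without young wildtype 3 or young mutant 3. The grna interaction passed by DESeq2 (-1.13). DESeq2 also called grnb in Mpeg1+ cells (1.58, range 1.12 to 2.30) and grn1 in Olig2+ cells (2.08). grn2 in Mpeg1+ cells ranged from 3.83 to 8.13 and grnb in Olig2+ cells from -1.86 to -1.25. Averaging alike libraries lost grn1 in Mpeg1+ cells (-1.42, adjusted p = 0.207), with 17 genes called in all, where 1798 were. The replicate block lost grn1 in young mutants against young wildtypes (-2.43, adjusted p = 0.0616) and in Mpeg1+ cells (-1.47, adjusted p = 0.0921, 249 genes called in all) and changed no other call on a member. The cause of these losses and gains was not tested.

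Partner counts moved as follows. In old mutants against old wildtypes 2 were higher with a pseudocount of 0.25, and 0 lower by edgeR and DESeq2. In old mutants against young mutants 1 was higher by edgeR and by DESeq2. In old wildtypes against young mutants 1 was lower with a filter at 50, and 2 interactions were higher by DESeq2. In Mpeg1+ cells 1 was higher at equal totals, and 4 higher and 5 lower by DESeq2. In Olig2+ cells 3 were higher and 5 lower at equal totals, 5 lower by edgeR and 6 lower by DESeq2.

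Equal totals left all 32 member results on their side of the threshold. They shifted the median gene to -0.16 in Mpeg1+ and -0.27 in Olig2+ cells, with 781 genes higher and 1130 lower in Mpeg1+ cells (1042 and 756 as deposited) and 876 and 3752 in Olig2+ cells (1557 and 2820). Counts over all genes moved by more than 1.5 times with a filter at 50 (from 2160 to 1070 with age in wildtypes, 1747 to 846 in young mutants, 559 to 328 in old mutants against old wildtypes, 263 to 157 in old against young mutants, 1558 to 851 in old wildtypes against young mutants, 1200 to 739 in the interaction), with DESeq2 (407 in old against young mutants, 3523 in Mpeg1+ cells), in fits of 2 groups (254 in old mutants against old wildtypes, 69 in old against young mutants) and without libraries high in pineal genes (1002 in young mutants, 93 in old against young mutants). With 1 library left out they were 365 in old mutants against old wildtypes at the lowest, 145 to 468 in old against young mutants, 666 to 3998 in Mpeg1+ cells and 2135 at the lowest in Olig2+ cells. Depth limits grn2 in telencephalon, grnb in mutants and the grn2 share in telencephalon, which rest on few reads.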
